A study of Mus musculus with 9 samples.

Results

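Cyclic AMP is the messenger through which beta-adrenergic receptors switch on lipolysis and heat production in fat cells. The genes described here encode the enzymes that make it, break it down and respond to it, the scaffolds that hold those enzymes in place, and the transcription factors they act on. They were chosen by symbol alone: adenylyl cyclases (Adcy), the catalytic and regulatory subunits of protein kinase A (Prkac, Prkar), phosphodiesterases with a symbol ending in a to d (Pde), A-kinase anchoring proteins (Akap), and the CREB, CREM and CRTC regulators of transcription, with Pde3b left out. The rule used no measured value, but it was set with earlier results of these data known. It found 60 genes among the 24013 gene symbols measured.

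RNA with poly(A) tails was sequenced from beige adipocytes, fat cells that can be induced to express the uncoupling protein Ucp1, which had been differentiated in culture from stromal vascular cells of mouse inguinal fat. There were 3 libraries from C57BL/6J mice (B6), which the series calls obesity prone, 3 from 129X1/SvJ mice (129), which it calls obesity resistant, and 3 from F1 offspring of these strains. All 9 libraries were taken at day 7 and all groups had the same medium: insulin (850 nM), T3 (1 nM), rosiglitazone (1 µM) and 10% serum throughout, with dexamethasone (1 µM), indomethacin (125 nM) and isobutylmethylxanthine (IBMX, 0.5 mM) added only in the 48 hours after confluence. The labels give no age, sex, number of mice or direction of the cross. They do not say either that replicate libraries are separate mice or dishes, so the p-values below measure the spread among these libraries only, which may be technical. IBMX blocks most phosphodiesterases and was given to every group, and cells that did not receive it are not analysed here.

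Receptors coupled to the stimulatory G protein activate adenylyl cyclases, which make cyclic AMP from ATP. Cyclic AMP binds the regulatory subunits of protein kinase A (PKA) and frees its catalytic subunits, which in fat cells phosphorylate hormone-sensitive lipase and perilipin, and the transcription factor CREB. Anchoring proteins tie the regulatory subunits to membranes, mitochondria or the nucleus, and phosphodiesterases hydrolyse the messenger and so limit where and for how long it acts. IBMX does not inhibit the enzymes of the Pde8 and Pde9 families.

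Levels are in RPKM, reads per kilobase of exon per 1000000 assigned reads, and errors of levels are standard deviations over 3 libraries. A gene was tested when it reached an RPKM of 1 in at least 3 of the 9 libraries, which 11542 genes did, 42 of the 60 among them. Differences are log2 fold changes of RPKM + 1 with standard errors, fitted for all tested genes with limma, and adjusted p-values are Benjamini-Hochberg values over all 11542 genes, called below 0.05. For 1 gene alone, the smallest p that exact permutation of 3 against 3 libraries allows is 0.1.

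Depth was 19130022 to 28473083 assigned reads in the parental libraries and 39686986 to 53410947 in F1. All 6 markers of mature adipocytes were expressed in every library, and Ucp1, the defining gene of beige cells, was at 9.88 RPKM in B6, 62.6 in 129 and 52.4 in F1 (means). B6 replicate 1 stood apart from the other B6 libraries in interferon-induced genes (mean log2 level of 9 such genes 5.08, against 3.10 and 3.47). The total counts of members called in contrasts that involve B6 are therefore also given without it. Summed markers of several other cell types differed between groups. Endothelial markers (5 genes) summed to 5.36 to 6.55 RPKM in B6, 2.80 to 3.56 in 129, with 4.09 to 4.42 in F1. The neuronal marker Tubb3 was at 5.28 to 7.83, 1.17 to 1.43 and 2.09 to 2.28 RPKM in the same order. Macrophage markers (6 genes) summed to 40.9 to 51.4, 19.4 to 43.8 and 35.9 to 52.5, smooth muscle markers (6 genes) to 128 to 145, 129.5 to 137 and 102 to 109, and adipocyte progenitor markers (5 genes) to 421 to 566, 439.9 to 459.6 and 307 to 386. No gene of these lists was at 0 in any library, with Rgs5 and Dpp4 the lowest at 0.231 RPKM or less. Of the endothelial, macrophage, smooth muscle and progenitor genes 2, 6, 5 and 4 passed the filter. In the order B6, 129 and F1, sums were 25476 to 29364, 29718 to 32049.9 and 33626 to 36077 for mature adipocytes (6 genes), 67.4 to 70.3, 102 to 109.7 and 122.7 to 133 for beige and brown adipocytes, 2.40 to 2.72, 1.5 to 2.23 and 1.95 to 2.30 for mast cells and 0.158 to 0.264, 0.253 to 0.345 and 0.143 to 0.259 for lymphocytes. The epithelial sum (7.64 to 8.71, 14.6 to 17.3 and 14.9 to 17.4) separated B6 from the others, but was nearly all Krt19, with Epcam, Krt8 and Krt18 at 0.029 RPKM or less in every library. Single genes dominated other sums too. Fabp4 made up most of the mature adipocyte sum, while Adipoq was highest in B6 (means 1508, 1289 and 1350 RPKM). Of the beige and brown list, Ucp1 and Cidea were higher in 129 than in B6, and Cox8b, Ppargc1a and Prdm16 were lower. Ly6a made up most of the progenitor sum. Pdgfra and Cd34 were higher in 129 (means 81.2 and 23.6 RPKM) than in B6 (43.8 and 16.8). The part of any of these cell types in the results below was not tested. In cultures measured in bulk, fewer cells of a type and less RNA per cell cannot be told apart.

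**Figure D1:**
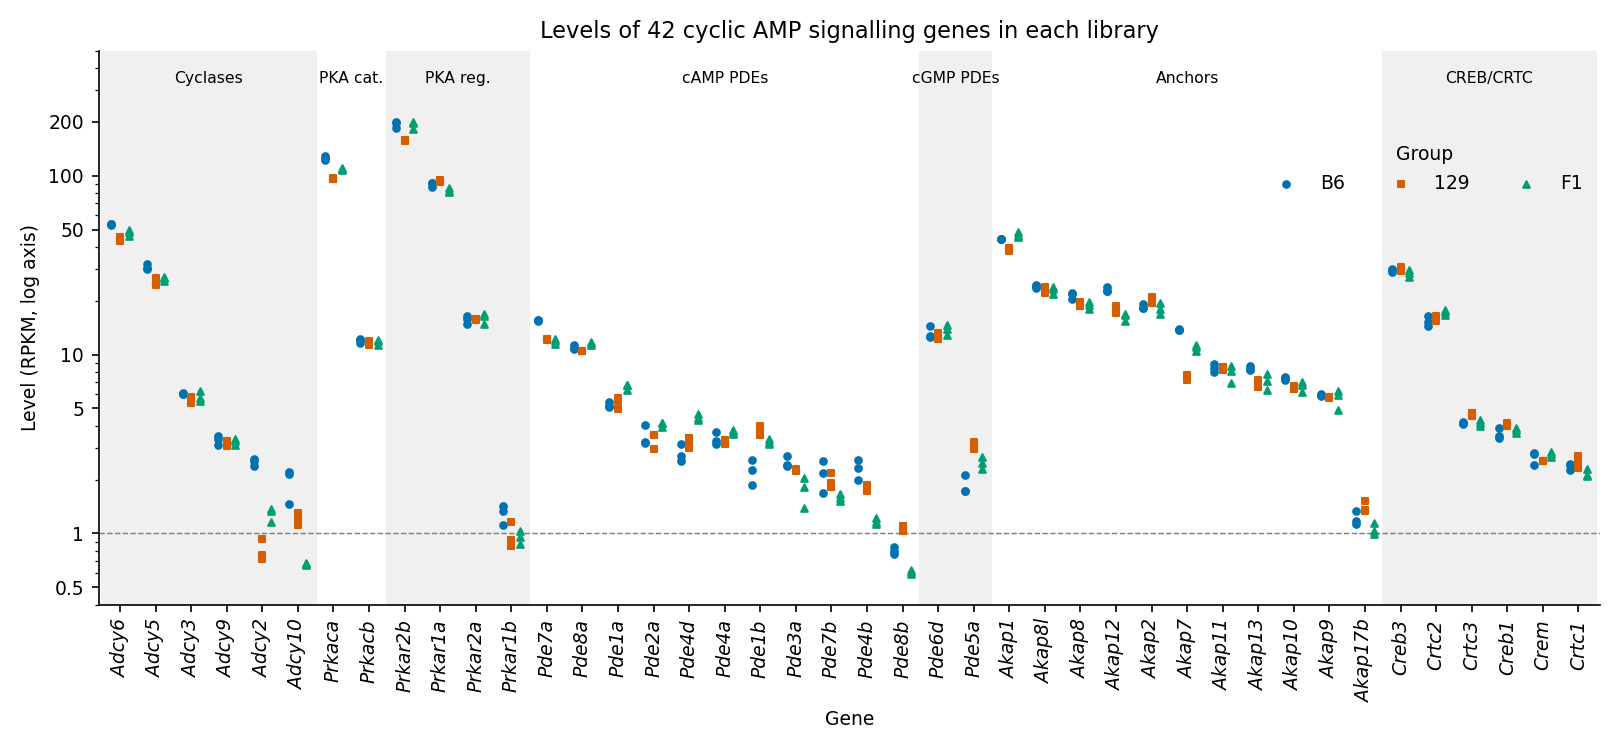
Level of each of the 42 tested genes (RPKM, log axis) in each of 9 libraries, with B6 as circles, 129 as squares and F1 as triangles, grouped by role. The PKA subunits Prkar2b, Prkaca and Prkar1a stand above all other genes shown, and the dashed line marks an RPKM of 1.

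Before any comparison between strains, the levels show which isoform of each enzyme had the most RNA. Prkar2b, the PKA regulatory subunit typical of fat, was the most abundant of the 60 genes at 156 to 201 RPKM over the 9 libraries. Prkaca, the main catalytic subunit, followed at 95.9 to 128 RPKM and Prkar1a, a ubiquitous regulatory subunit, at 81.6 to 94.7 RPKM. Among the cyclases Adcy6 (43.3 to 54.1 RPKM) and Adcy5 (24.5 to 32.2 RPKM), both inhibited by calcium, exceeded all others. Akap1, which brings PKA to the outer mitochondrial membrane, led the anchoring proteins at 37.8 to 48.5 RPKM. The phosphodiesterases of the rule were all lower: Pde7a (11.5 to 15.6 RPKM), Pde8a (10.5 to 11.8 RPKM) and the non-catalytic Pde6d (12.2 to 14.6 RPKM) were the highest. Pde3b, the insulin-regulated phosphodiesterase of fat cells that the rule leaves out, was at 87.4 ± 3.84 RPKM in B6, 82.8 ± 0.914 in 129 and 101 ± 6.70 in F1, and so exceeded each of them.

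The promoters of 5 members are shown because of what they hold of the cyclic AMP response element, TGACGTCA, the DNA sequence to which CREB binds. Sequences are RefSeq windows of build GRCm38.p6, the C57BL/6J reference, from 250 bases before a transcript start to 50 bases from it on, read 5′ to 3′ on the strand of the gene. Capitals mark TGACG and its complement CGTCA, the short forms of the element, each of which the whole element contains. Prkar1a is the one tested member with a window that holds the whole element, which begins 49 bases before the start. Prkaca and Pde4b, which differed between the strains, hold short forms, Prkaca at 120 and 6 bases and Pde4b at 34 bases before the start. Both have other windows, not shown, with neither form. Of the other tested members with a short form, only Pde8b differed between the strains past the threshold. Prkar1a, Prkar1b, Prkar2a, Prkacb, Adcy9, Pde1a, Pde2a, Pde4a, Pde8a, Akap8l and Akap11 did not. Adcy2 and Akap7, the members with the largest differences between the strains, have neither form in the windows shown.
Prkar1a, chr11:109650699-109650998, plus strand: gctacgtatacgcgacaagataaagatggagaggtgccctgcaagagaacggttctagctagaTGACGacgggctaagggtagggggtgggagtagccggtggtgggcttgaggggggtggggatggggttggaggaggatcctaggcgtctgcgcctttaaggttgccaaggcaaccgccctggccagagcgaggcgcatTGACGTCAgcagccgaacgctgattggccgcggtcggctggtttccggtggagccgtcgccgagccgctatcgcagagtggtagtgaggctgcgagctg
Prkaca, chr8:83972728-83973027, plus strand: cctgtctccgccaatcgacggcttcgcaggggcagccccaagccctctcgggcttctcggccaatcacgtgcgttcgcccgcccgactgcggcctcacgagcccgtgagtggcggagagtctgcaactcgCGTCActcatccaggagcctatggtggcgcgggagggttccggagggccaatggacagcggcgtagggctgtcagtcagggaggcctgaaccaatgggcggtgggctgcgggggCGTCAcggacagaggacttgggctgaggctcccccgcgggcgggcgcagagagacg
Pde4b, chr4:102421305-102421604, plus strand: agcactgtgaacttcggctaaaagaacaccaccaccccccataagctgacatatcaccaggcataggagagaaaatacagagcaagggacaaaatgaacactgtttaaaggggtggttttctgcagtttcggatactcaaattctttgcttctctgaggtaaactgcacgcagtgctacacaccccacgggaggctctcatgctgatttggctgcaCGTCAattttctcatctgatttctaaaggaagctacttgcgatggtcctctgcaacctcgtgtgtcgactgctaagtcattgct
Adcy2, chr13:68999492-68999791, minus strand: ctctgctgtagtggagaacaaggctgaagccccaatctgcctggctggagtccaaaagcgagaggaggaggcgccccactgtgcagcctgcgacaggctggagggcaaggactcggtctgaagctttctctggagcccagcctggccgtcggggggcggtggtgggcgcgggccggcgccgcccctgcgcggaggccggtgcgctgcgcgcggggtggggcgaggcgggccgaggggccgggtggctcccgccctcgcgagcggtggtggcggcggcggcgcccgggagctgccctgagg
Akap7, chr10:25297030-25297329, minus strand: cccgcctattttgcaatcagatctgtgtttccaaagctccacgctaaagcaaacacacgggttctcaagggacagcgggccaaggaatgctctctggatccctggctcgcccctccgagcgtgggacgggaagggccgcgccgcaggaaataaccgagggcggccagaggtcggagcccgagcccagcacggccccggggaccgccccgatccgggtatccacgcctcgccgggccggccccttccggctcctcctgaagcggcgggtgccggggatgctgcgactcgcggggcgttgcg

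Of the 60 genes, 49 had such a window, and 35 of the 42 tested. The whole element was in the windows of 2 of the 49 (Prkar1a and Creb5), 4.08%, against 2.03% of all 27025 genes with a window. A short form was found for 16 of the 49 (32.65%), against 23.05% of all genes. Among the 35 tested members 1 (2.86%) had the whole element and 14 (40.0%) a short form, with no share over all tested genes to set beside these. Several members have more than 1 window. Counted by window, a short form was in 19.57% of the 92 windows of members, against 20.81% of all 32851. For tested members it was in 22.54% of 71 windows. A match in these letters is a description of the window and not a measured binding site, and some windows belong to transcripts that these cells may not use.

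Between the parental strains, every cyclase, PKA subunit and anchoring protein that passed the test was lower in 129 than in B6, and most of the differences were small. In 129, 14 of the 42 tested genes were lower than in B6 and 5 were higher, while 23 did not pass the test. This is 33.3% lower and 11.9% higher, where 21.7% and 15.9% of all tested genes were lower and higher. The members' median log2 fold change was -0.05, against -0.03 for all tested genes, and the libraries of the strains did not overlap for 25 of the 42, against 49.9% of all tested genes. The cyclases (4 of 6 lower), catalytic subunits (1 of 2), regulatory subunits (1 of 4) and anchoring proteins (6 of 11) had no member higher in 129. Phosphodiesterases acting on cyclic AMP went both ways (2 lower and 2 higher of 11). Of the higher ones, Pde8b passed the filter only through its 129 libraries. In the cyclic GMP group 1 of 2 tested genes was higher, as were 2 of 6 CREB and CRTC genes. Without B6 replicate 1, 11 genes were lower and 2 higher. After median-of-ratios rescaling of the libraries 12 were lower and 5 higher, with a median of -0.02 for members against 0.01 for all tested genes.

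**Figure D2:**
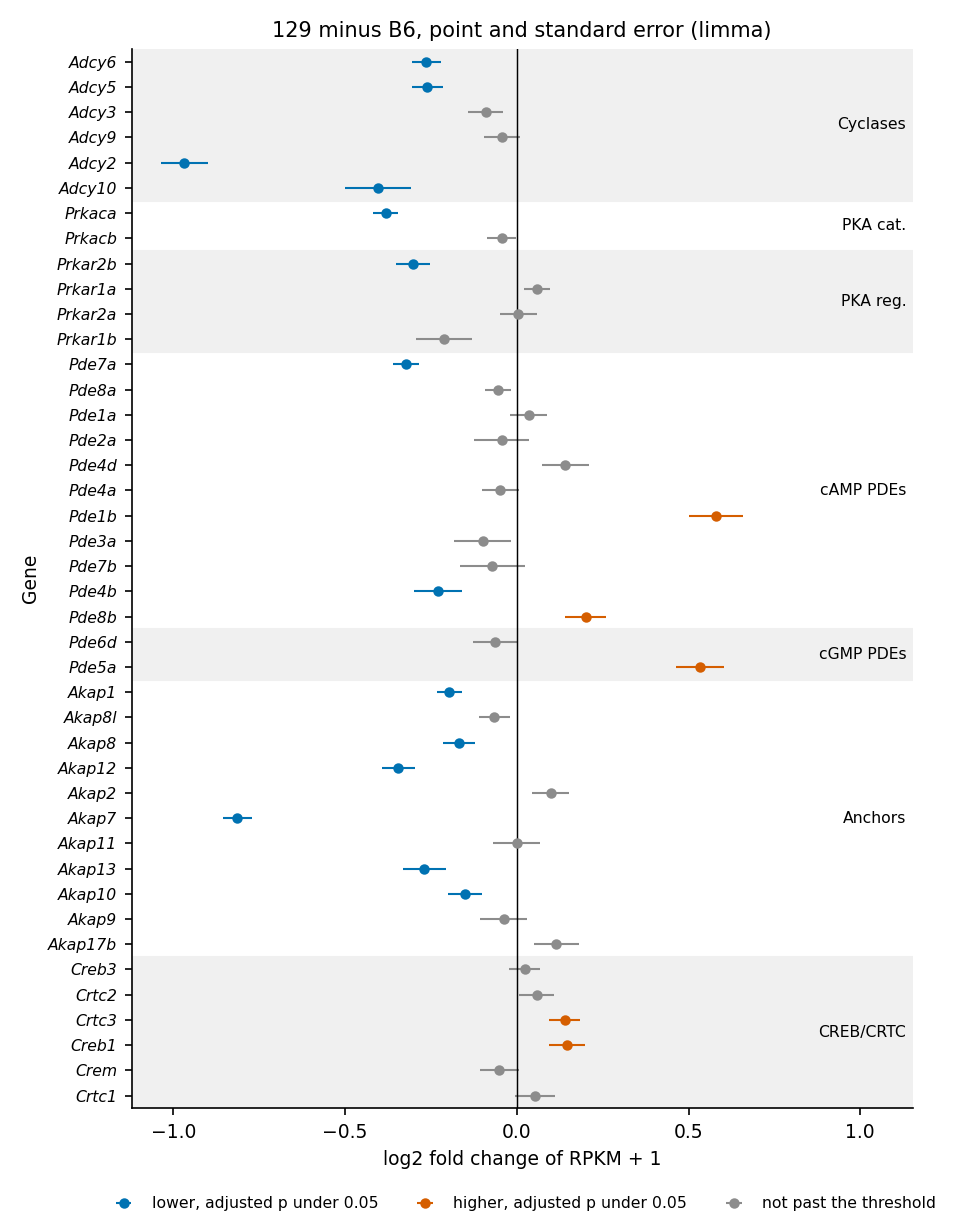
Log2 fold change of RPKM + 1 in 129 minus B6 for each of the 42 tested genes, with standard errors from limma, grouped by role. Adcy2 and Akap7 lie farthest to the left and Pde1b and Pde5a farthest to the right, and no called cyclase, PKA subunit or anchoring protein lies to the right of 0.

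The cyclases were lower in 129 for 4 of 6 tested genes, from the abundant Adcy6 and Adcy5 to the scarce Adcy2 and Adcy10. Adcy6 was at 54.1, 53.0 and 53.5 RPKM in the B6 libraries, at 43.3, 45.7 and 44.5 in 129 and at 46.1, 48.4 and 49.9 in F1. The groups did not overlap, with F1 between the parents. The log2 fold change was -0.26 (SE 0.04, adjusted p = 0.000517) in 129 minus B6 and -0.15 (SE 0.04, adjusted p = 0.0177) in F1 minus B6, while F1 minus 129 did not pass at 0.11 (95% interval 0.02 to 0.20, adjusted p = 0.068). The call in F1 minus B6 did not hold after median-of-ratios rescaling or without B6 replicate 1 or F1 replicate 1, where the value was -0.14 to -0.09. Adcy5 was at 30.6, 30.0 and 32.2 RPKM in B6, at 24.5, 26.7 and 25.7 in 129 and at 26.9, 27.0 and 25.8 in F1. All B6 libraries lay above all others, and those of 129 and F1 overlapped. Its change was -0.26 (SE 0.04, adjusted p = 0.000989) in 129 minus B6 and -0.21 (SE 0.04, adjusted p = 0.00497) in F1 minus B6. All 10 cyclases summed to 101 ± 1.44 RPKM in B6, 82.6 ± 2.23 in 129 and 87.5 ± 2.15 in F1. The share of Adcy6 in this sum was 53.2 ± 0.516%, 53.8 ± 0.254% and 55 ± 1.18% in the same order.

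Adcy2 (chr13:68758920-69138419 in mm9), a cyclase stimulated by G protein beta-gamma subunits, had the largest difference between the parents of all members. It was at 2.55, 2.40 and 2.62 RPKM in B6, at 0.928, 0.717 and 0.761 in 129 and at 1.16, 1.36 and 1.34 in F1, from 76 to 307 reads per library. The 3 groups were fully separate, with F1 between the parents. The log2 fold change was -0.97 (SE 0.07, adjusted p = 1.66e-06) in 129 minus B6, -0.62 (SE 0.07, adjusted p = 9.28e-05) in F1 minus B6 and 0.35 (SE 0.07, adjusted p = 0.00388) in F1 minus 129. With a pseudocount of 1 these values understate the change of so low a gene: the mean RPKM in 129 was 0.318 times that in B6. The endothelial sum and Tubb3, given above, were lower in every 129 library than in any B6 library too, and their part in this difference was not tested.

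Adcy10, the soluble cyclase that responds to bicarbonate rather than to G proteins, had the lowest levels in F1. It was at 2.21, 1.46 and 2.14 RPKM in B6, at 1.30, 1.11 and 1.2 in 129 and at 0.672, 0.668 and 0.684 in F1. B6 replicate 2 lay closer to 129 than to the other B6 libraries, and no group overlapped another. The change was -0.40 (SE 0.10, adjusted p = 0.00738) in 129 minus B6, -0.80 (SE 0.10, adjusted p = 0.00017) in F1 minus B6 and -0.39 (SE 0.10, adjusted p = 0.0122) in F1 minus 129. Adcy3, a cyclase abundant in olfactory neurons and present in fat, was at 6.07 ± 0.0494 RPKM in B6, 5.64 ± 0.236 in 129 and 5.82 ± 0.390 in F1, and Adcy9 at 3.33 ± 0.182, 3.21 ± 0.104 and 3.26 ± 0.143, and neither passed in any contrast. In 129 minus B6, the 95% interval of the log2 fold change was -0.21 to 0.02 for Adcy3 and -0.16 to 0.07 for Adcy9. Of the Adcy3 exon length, 22.09% overlaps Cenpo on the opposite strand. The library kit kept the strand, but the strand setting of the counting is not given in the sources used here.

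The most abundant catalytic subunit of PKA was lower in 129 and intermediate in F1, while its less abundant partner did not pass in any contrast. Prkaca (chr8:86496877-86520341 in mm9) was at 123.1, 126 and 128 RPKM in B6, at 95.9, 96.3 and 97.0 in 129 and at 109.9, 108 and 109 in F1. The groups were fully separate, F1 lay between the parents, and the spread within each was small. The change was -0.38 (SE 0.04, adjusted p = 1.41e-05) in 129 minus B6, -0.21 (SE 0.04, adjusted p = 0.00158) in F1 minus B6 and 0.17 (SE 0.04, adjusted p = 0.00509) in F1 minus 129, and against the average of both parents on the log2 scale (the mid-parent value) F1 was at -0.02 (95% interval -0.09 to 0.05, adjusted p = 0.721). Its promoter, with 2 short forms of the response element, is shown above. Prkacb was at 12.1, 12.3 and 11.6 RPKM in B6, at 11.7, 11.9 and 11.3 in 129 and at 11.4, 12.1 and 11.9 in F1. These ranges overlapped in every comparison, and the change in 129 minus B6 was -0.04 (95% interval -0.14 to 0.05, adjusted p = 0.447).

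The regulatory subunits, which inhibit the catalytic subunits until cyclic AMP binds, included members with different orders of the groups. Prkar2b (chr12:32643344-32746144 in mm9) was at 197, 186 and 201 RPKM in B6, at 158, 156 and 159 in 129 and at 196, 182 and 201 in F1. The 129 libraries lay below all others, and those of B6 and F1 overlapped. The change was -0.30 (SE 0.05, adjusted p = 0.00073) in 129 minus B6, 0.29 (SE 0.05, adjusted p = 0.00175) in F1 minus 129 and 0.14 (SE 0.04, adjusted p = 0.041) in F1 minus the mid-parent value, while F1 minus B6 was -0.01 (95% interval -0.12 to 0.10, adjusted p = 0.869). The call against the mid-parent value did not hold in 9 of 17 alternatives, among them those without B6 replicate 1, any 129 replicate, or F1 replicate 1 or 3, where it was 0.11 to 0.14.

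Prkar1a, whose promoter holds the whole response element, was at 91.5, 86.9 and 90.8 RPKM in B6, at 94.7, 92.5 and 93.4 in 129 and at 81.7, 85.1 and 81.6 in F1. All F1 libraries lay below all parental ones. The parental strains did not differ past the threshold, at 0.06 (95% interval -0.03 to 0.14, adjusted p = 0.26), and F1 was lower than 129 (log2 fold change -0.17, SE 0.04, adjusted p = 0.00769), than B6 (log2 fold change -0.11, SE 0.04, adjusted p = 0.0457) and than the mid-parent value (log2 fold change -0.14, SE 0.03, adjusted p = 0.0117). The call against B6 did not hold in 11 of 16 alternatives, among them those without B6 replicate 1 or 3, any 129 replicate, or F1 replicate 1 or 3, where it was -0.12 to -0.06. Prkar2a was at 16.5, 14.9 and 15.9 RPKM in B6, at 15.9, 15.8 and 15.7 in 129 and at 14.8, 16.5 and 16.9 in F1. Its ranges overlapped in all comparisons, and the change in 129 minus B6 was 0.00 (95% interval -0.12 to 0.13, adjusted p = 0.955). Prkar1b, a subunit found mainly in brain, was at 1.29 ± 0.161, 0.979 ± 0.167 and 0.954 ± 0.0801 RPKM in B6, 129 and F1 and passed in no contrast.

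**Figure D3:**
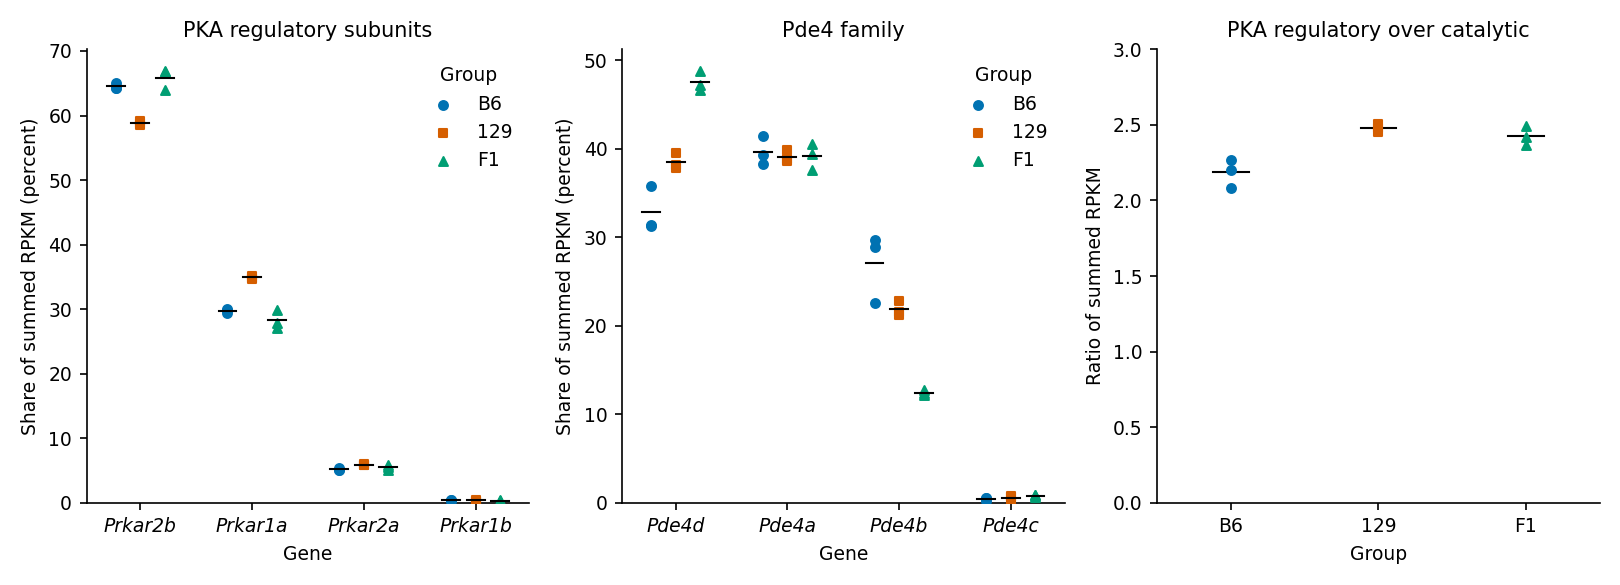
Share of each isoform (percent) in the summed RPKM of the PKA regulatory subunits (left) and of the Pde4 family (centre), and ratio of summed regulatory to summed catalytic PKA subunits (right), with points for the 9 libraries (B6 circles, 129 squares, F1 triangles) and lines for the means of 3. Pde4d takes 31.3% to 35.8% of the Pde4 family in B6 and 46.6% to 48.8% in F1.

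Summed over isoforms, which has no test here, PKA differed in its balance of subunits. Catalytic subunits summed to 138 ± 2.46 RPKM in B6, 108 ± 0.412 in 129 and 121 ± 0.537 in F1, and regulatory subunits to 301 ± 10.9, 268 ± 2.21 and 293 ± 8.07. The ratio of regulatory to catalytic RNA was 2.27, 2.08 and 2.20 in the B6 libraries, 2.5, 2.45 and 2.48 in 129 and 2.42, 2.37 and 2.49 in F1. It was lower in every B6 library than in any other. Prkar2b made up 64.3 to 65.0% of regulatory RNA in B6, 58.5 to 59.1% in 129, with 63.9 to 66.9% in F1. Prkar1a took 29.4 to 30.1%, 34.7 to 35.1% and 27.2 to 29.9%, so the 129 libraries had the smallest share of the fat-typical isoform and the largest of the ubiquitous one. RNA ratios are not ratios of protein.

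The phosphodiesterases that act on cyclic AMP differed between the strains in both directions. The sum over the 15 genes of the rule was 52.9 ± 2.18 RPKM in B6, 50.3 ± 0.511 in 129 and 51.8 ± 1.15 in F1. Pde7a and Pde4b were lower in 129 than in B6, and Pde1b and Pde8b were higher. Pde7a, which acts on cyclic AMP alone, was at 15.4, 15.6 and 15.5 RPKM in B6, at 12.1, 12.2 and 12.3 in 129 and at 12, 11.5 and 12.2 in F1. All B6 libraries lay above all others, and 129 and F1 overlapped. The change was -0.32 (SE 0.04, adjusted p = 6.22e-05) in 129 minus B6, -0.36 (SE 0.04, adjusted p = 6.86e-05) in F1 minus B6 and -0.20 (SE 0.03, adjusted p = 0.00197) in F1 minus the mid-parent value. Its paralogue Pde7b, at 2.13 ± 0.427, 1.97 ± 0.190 and 1.58 ± 0.0774 RPKM in B6, 129 and F1, passed in no contrast although all its F1 libraries lay below all parental ones, with F1 minus the mid-parent value at -0.24 (95% interval -0.42 to -0.05, adjusted p = 0.0623).

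Of the calcium-activated Pde1 family, Pde1b was higher in 129 and F1 than in B6, and Pde1a was highest in F1. Pde1b was at 2.25, 2.57 and 1.86 RPKM in B6, at 3.54, 3.91 and 3.98 in 129 and at 3.24, 3.15 and 3.36 in F1. The groups did not overlap, and F1 lay between the parents. The change was 0.58 (SE 0.08, adjusted p = 0.000174) in 129 minus B6 and 0.40 (SE 0.08, adjusted p = 0.00299) in F1 minus B6, the largest positive value of any member in the former. Pde1a was at 5.24 ± 0.153 RPKM in B6, 5.40 ± 0.377 in 129 and 6.62 ± 0.245 in F1. Every F1 library lay above every parental one. It was higher in F1 than in B6 (log2 fold change 0.29, SE 0.05, adjusted p = 0.00242), than in 129 (log2 fold change 0.25, SE 0.05, adjusted p = 0.0057) and than the mid-parent value (log2 fold change 0.27, SE 0.05, adjusted p = 0.00243), and between the parents it did not pass at 0.03 (95% interval -0.08 to 0.15, adjusted p = 0.65).

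Within the Pde4 family, whose enzymes are specific for cyclic AMP, Pde4b and Pde4d moved in opposite directions in F1. Pde4b (chr4:101927347-102279867 in mm9) was at 2.56, 2.0 and 2.33 RPKM in B6, at 1.72, 1.84 and 1.87 in 129 and at 1.17, 1.14 and 1.21 in F1. The groups were separate and F1 was the lowest. The change was -0.23 (SE 0.07, adjusted p = 0.0243) in 129 minus B6, -0.60 (SE 0.07, adjusted p = 0.000127) in F1 minus B6, -0.37 (SE 0.07, adjusted p = 0.0029) in F1 minus 129 and -0.49 (SE 0.06, adjusted p = 0.000396) in F1 minus the mid-parent value. Only the first of these was lost, without B6 replicate 1 or 3 or 129 replicate 1 or 2, where it was -0.24 to -0.17. Pde4d (chr13:109444371-110746177 in mm9) was at 2.71, 3.17 and 2.53 RPKM in B6, at 3.02, 3.43 and 3.12 in 129 and at 4.42, 4.34 and 4.65 in F1. The parental ranges overlapped and all F1 libraries lay above them. Pde4d was higher in F1 than in B6 (log2 fold change 0.53, SE 0.07, adjusted p = 0.000265), than in 129 (log2 fold change 0.39, SE 0.07, adjusted p = 0.00214) and than the mid-parent value (log2 fold change 0.46, SE 0.06, adjusted p = 0.000504), and the parents did not differ past the threshold, at 0.14 (95% interval -0.01 to 0.29, adjusted p = 0.13). Pde4a, at 3.38 ± 0.258, 3.24 ± 0.0930 and 3.68 ± 0.0987 RPKM, passed in no contrast.

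The make-up of the Pde4 family in F1 lay outside that of both parents. Its sum was 8.52 ± 0.40 RPKM in B6, 8.28 ± 0.350 in 129 and 9.40 ± 0.112 in F1. Pde4d made up 31.3 to 35.8% of it in B6, 37.8 to 39.6% in 129, with 46.6 to 48.8% in F1. Pde4b made up 22.6 to 29.7%, 21.2 to 22.8% and 12.2 to 12.7%. Pde4a kept 38.3 to 41.5%, 38.6 to 39.8% and 37.6 to 40.6%. These shares have no test.

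The remaining cyclic AMP phosphodiesterases included the IBMX-insensitive Pde8 enzymes and Pde3a. Pde3a, the paralogue of Pde3b, was at 2.43, 2.70 and 2.38 RPKM in B6, at 2.25, 2.29 and 2.26 in 129 and at 1.40, 2.04 and 1.82 in F1. All F1 libraries lay below all parental ones, with F1 replicate 1 the lowest. It was lower in F1 than in B6 (log2 fold change -0.35, SE 0.08, adjusted p = 0.00887), than in 129 (log2 fold change -0.25, SE 0.08, adjusted p = 0.044) and than the mid-parent value (log2 fold change -0.30, SE 0.07, adjusted p = 0.0126). The call against 129 did not hold in 10 of 15 alternatives, among them those without B6 replicate 1 or 3, any 129 replicate, or F1 replicate 1 or 3, where it was -0.27 to -0.16. Pde3b itself was higher in F1 than in B6 (log2 fold change 0.20, SE 0.05, adjusted p = 0.0143) and than in 129 (log2 fold change 0.28, SE 0.05, adjusted p = 0.00302).

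Pde8b was low, at 0.799 ± 0.0363 RPKM in B6, 1.07 ± 0.0370 in 129 and 0.607 ± 0.0145 in F1 (72 to 160 reads per library), and passed the filter through its 3 libraries of 129, where it was high. Its differences involving 129 are therefore in part a condition of its being tested. It was higher in 129 than in B6 (log2 fold change 0.20, SE 0.06, adjusted p = 0.0225) and lower in F1 than in 129 (log2 fold change -0.36, SE 0.06, adjusted p = 0.0014) and than the mid-parent value (log2 fold change -0.26, SE 0.05, adjusted p = 0.00508). The call between the parents did not hold without B6 replicate 1 or 2, where it was 0.19 to 0.20. Pde8a, at 10.9 ± 0.287, 10.5 ± 0.0126 and 11.5 ± 0.232 RPKM, was higher in F1 than in 129 (log2 fold change 0.12, SE 0.04, adjusted p = 0.0343) and passed in no other contrast. That call did not hold in 7 of 16 alternatives, those with the replicate block or without B6 replicate 1, any 129 replicate, or F1 replicate 2 or 3, where it was 0.11 to 0.12. Pde2a, the phosphodiesterase stimulated by cyclic GMP, was at 3.51 ± 0.484, 3.37 ± 0.336 and 4.07 ± 0.119 RPKM and passed in no contrast.

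Of the cyclic GMP group, Pde5a, the enzyme specific for cyclic GMP, was higher in 129 than in B6. It was at 1.72, 2.14 and 1.73 RPKM in B6, at 3.25, 2.98 and 3.17 in 129 and at 2.28, 2.49 and 2.67 in F1. The groups did not overlap, with F1 between the parents. The change was 0.53 (SE 0.07, adjusted p = 0.000173) in 129 minus B6, 0.28 (SE 0.07, adjusted p = 0.0121) in F1 minus B6 and -0.25 (SE 0.07, adjusted p = 0.0252) in F1 minus 129. The last of these did not hold without the filter or without 129 replicate 1 or 3 or F1 replicate 1 or 2, where it was -0.25 to -0.21. Pde5a is abundant in smooth muscle, whose summed markers, given above, overlapped between B6 and 129. That sum was mostly Acta2 and Tagln, which overlapped too. Myh11, Cnn1, Cspg4 and Rgs5 of the same list were lower in every 129 library than in any B6 library. Their means were 3.75, 3.52, 4.28 and 0.189 RPKM in B6 and 1.56, 1.81, 2.46 and 0.0362 in 129. The part of such cells in the Pde5a difference was not tested. Pde6d, which the rule takes by its name, encodes a carrier of prenylated proteins and not a phosphodiesterase; it was at 13.2 ± 1.12, 12.6 ± 0.560 and 13.8 ± 0.892 RPKM and passed in no contrast.

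The anchoring proteins were lower in 129 than in B6 for 6 of 11 tested genes and higher for 0, by amounts that were small except for Akap7. Their sum was 177 ± 0.733 RPKM in B6, 155 ± 0.937 in 129 and 163 ± 7.19 in F1. Akap7 (chr10:24888896-25018969 in mm9), a small membrane-bound anchor known from calcium channel regulation in heart, was at 13.9, 13.8 and 13.7 RPKM in B6, at 7.71, 7.24 and 7.28 in 129 and at 11.3, 10.5 and 11 in F1. The 3 groups were far apart compared with the spread within each, with F1 between the parents. The change was -0.81 (SE 0.04, adjusted p = 1.94e-07) in 129 minus B6, -0.31 (SE 0.04, adjusted p = 0.000434) in F1 minus B6 and 0.51 (SE 0.04, adjusted p = 1.93e-05) in F1 minus 129. Against the mid-parent value F1 was at 0.10 (95% interval 0.02 to 0.18, adjusted p = 0.0782). The mean RPKM in 129 was 0.538 times that in B6. Adrb3, the beta-3 adrenergic receptor at the head of the pathway, had the same order of groups, with 54.0 ± 1.03 RPKM in B6, 36.5 ± 0.714 in 129 and 45.5 ± 1.84 in F1.

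Akap12 (gravin), a scaffold at the plasma membrane that binds PKA and beta-adrenergic receptors, was at 22.6, 23.8 and 22.8 RPKM in B6, at 18.6, 17.0 and 18.2 in 129 and at 15.5, 16.8 and 16.7 in F1. The groups did not overlap, and F1 was the lowest. The change was -0.34 (SE 0.05, adjusted p = 0.000226) in 129 minus B6, -0.47 (SE 0.05, adjusted p = 5.56e-05) in F1 minus B6 and -0.30 (SE 0.04, adjusted p = 0.000713) in F1 minus the mid-parent value, while F1 minus 129 was -0.13 (95% interval -0.23 to -0.02, adjusted p = 0.0704). Summed adipocyte progenitor and smooth muscle markers, given above, were also lowest in F1. Of the smooth muscle list, Cspg4 and Rgs5 were instead lowest in 129 (means 2.46 and 0.0362 RPKM, against 4.27 and 0.0791 in F1). The part of such cells in the Akap12 differences was not tested.

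Akap13, an anchor that is also a guanine nucleotide exchange factor, was at 8.36, 8.62 and 8.22 RPKM in B6, at 6.58, 7.17 and 6.66 in 129 and at 6.33, 7.10 and 7.76 in F1. B6 lay above both other groups, which overlapped. The change was -0.27 (SE 0.06, adjusted p = 0.00703) in 129 minus B6 and -0.22 (SE 0.06, adjusted p = 0.0217) in F1 minus B6. The latter did not hold after median-of-ratios rescaling or without B6 replicate 1 or 2 or F1 replicate 1 or 2, where it was -0.23 to -0.16. Akap1 was at 44.4 ± 0.147 RPKM in B6, 38.6 ± 0.806 in 129 and 46.9 ± 1.5 in F1. It was lower in 129 than in B6 (log2 fold change -0.20, SE 0.04, adjusted p = 0.00205), and higher in F1 than in 129 (log2 fold change 0.27, SE 0.04, adjusted p = 0.000464) and than the mid-parent value (log2 fold change 0.18, SE 0.03, adjusted p = 0.00382). Akap1 thus took 28.1 to 30.0% of the summed anchoring RNA in F1, against 25.1 to 25.2% in B6 and 24.2 to 25.4% in 129.

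The nuclear anchor Akap8 was at 21.4 ± 0.918, 19.0 ± 0.576 and 18.9 ± 0.868 RPKM in B6, 129 and F1. It was lower in 129 than in B6 (log2 fold change -0.17, SE 0.05, adjusted p = 0.018) and in F1 than in B6 (log2 fold change -0.18, SE 0.05, adjusted p = 0.0179), and its neighbour Akap8l, on the same strand of chromosome 17 and 271 bases away, passed in no contrast (24.1 ± 0.526, 23.0 ± 0.796 and 23.0 ± 1.06 RPKM). The Akap8 calls did not hold after median-of-ratios rescaling or without B6 replicate 1 or 3, nor, in 129 minus B6, without 129 replicate 2 or 3, nor, in F1 minus B6, without F1 replicate 1, where they were -0.16 to -0.13 and -0.17 to -0.12. Akap10, found at mitochondria and endosomes, was at 7.36 ± 0.101, 6.53 ± 0.154 and 6.68 ± 0.447 RPKM. It was lower in 129 than in B6 (log2 fold change -0.15, SE 0.05, adjusted p = 0.0346), a call that did not hold after median-of-ratios rescaling or without any 1 of the 6 parental libraries, where it was -0.17 to -0.12. The X-linked Akap17b, at 1.22 ± 0.112, 1.40 ± 0.102 and 1.06 ± 0.0758 RPKM, was lower in F1 than in 129 (log2 fold change -0.22, SE 0.07, adjusted p = 0.0307), which did not hold with the replicate block or without any 129 replicate or F1 replicate 1 or 2 (-0.24 to -0.19). Akap2 (16.9 to 21.1 RPKM over 9 libraries), Akap11 (6.91 to 8.81) and the centrosomal and Golgi anchor Akap9 (4.89 to 6.25) passed in no contrast.

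The transcription factors at the end of the pathway had the smallest median absolute log2 fold change of the 7 roles in 129 minus B6, 0.06. Creb1, the factor that PKA phosphorylates, was at 3.49, 3.88 and 3.42 RPKM in B6, at 3.97, 4.16 and 4.11 in 129 and at 3.64, 3.77 and 3.87 in F1. The 129 libraries lay above those of B6, and F1 overlapped B6. The change in 129 minus B6 was 0.15 (SE 0.05, adjusted p = 0.0498), at the edge of the threshold. It did not hold in 11 of 16 alternatives, among them those without B6 replicate 1 or 3, any 129 replicate or any F1 replicate, where it was 0.12 to 0.16. Crem, a CREB relative that also yields an inducible repressor, was at 2.80, 2.41 and 2.82 RPKM in B6, at 2.53, 2.54 and 2.56 in 129 and at 2.84, 2.67 and 2.79 in F1. The parental ranges overlapped, and the change in 129 minus B6 was -0.05 (95% interval -0.18 to 0.08, adjusted p = 0.525).

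Of the CRTC coactivators, which bind CREB when dephosphorylated, Crtc3 was at 4.15 ± 0.0494, 4.67 ± 0.116 and 4.13 ± 0.157 RPKM in B6, 129 and F1, higher in 129 than in B6 (log2 fold change 0.14, SE 0.04, adjusted p = 0.032) and lower in F1 than in 129 (log2 fold change -0.14, SE 0.04, adjusted p = 0.036). The former did not hold with the replicate block or without B6 replicate 1 or 3 or 129 replicate 1 or 2 (0.13 to 0.14), and the latter did not hold in 9 of 15 alternatives, among them those without B6 replicate 1, any 129 replicate, or F1 replicate 1 or 2 (-0.16 to -0.12). Crtc2 was at 15.4 ± 1.000, 16.1 ± 0.503 and 17.2 ± 0.568 RPKM, with every F1 library above every parental one, and was higher in F1 than in B6 (log2 fold change 0.15, SE 0.05, adjusted p = 0.0462). That call did not hold without the filter or without B6 replicate 1 or 3, any 129 replicate, or F1 replicate 2 or 3 (0.11 to 0.15). Crtc1 (2.11 to 2.70 RPKM over 9 libraries) and Creb3 (27.1 to 31.1 RPKM), a factor anchored in the endoplasmic reticulum, passed in no contrast. Of the Creb3 exon length, 8.41% overlaps Gba2 on the opposite strand.

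**Figure D4:**
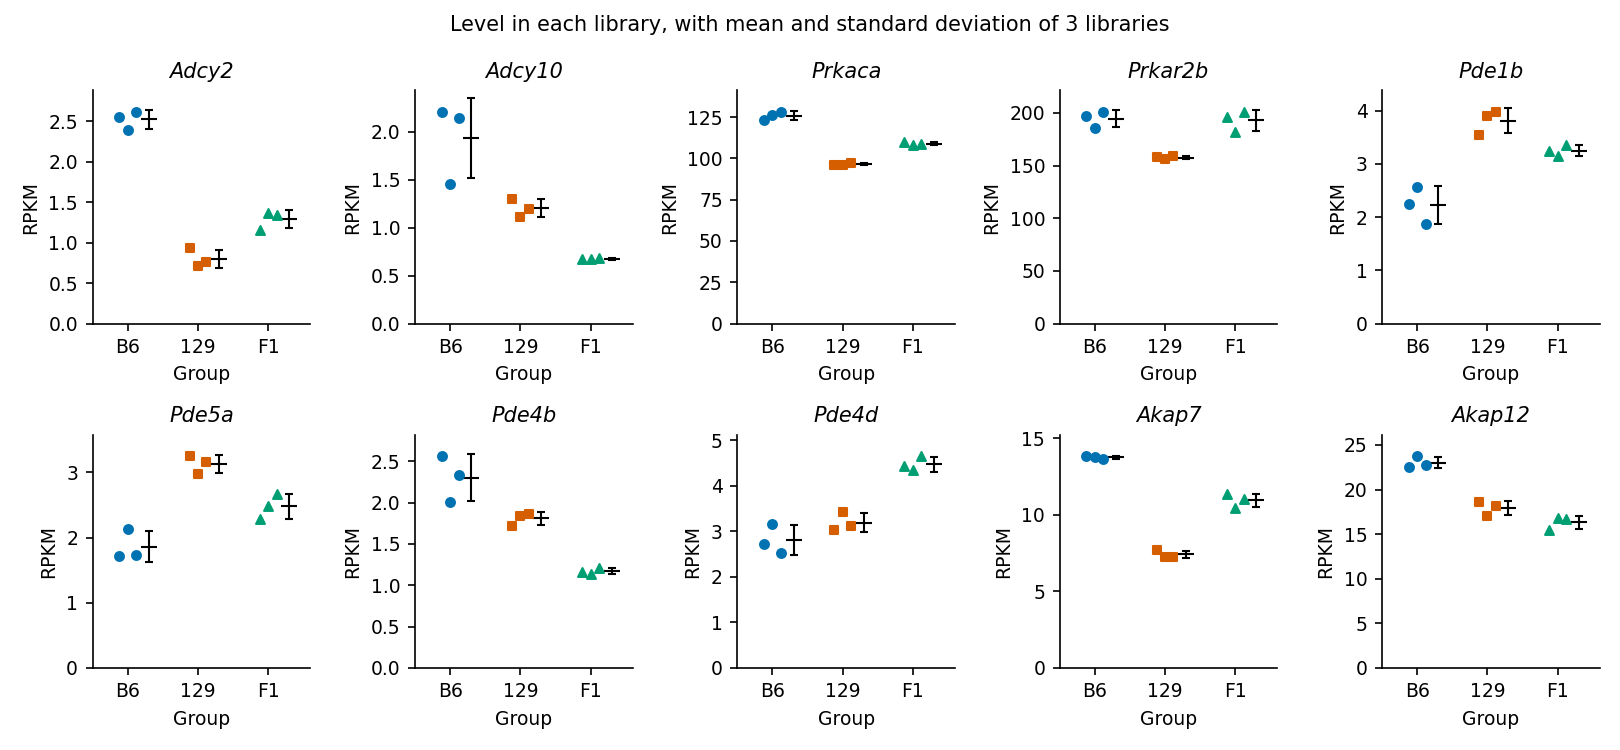
Level (RPKM) of 10 members in each of 9 libraries, with B6 as circles, 129 as squares and F1 as triangles. Bars beside the points are the mean and standard deviation of 3 libraries, and every axis starts at 0. F1 lies between the parents for Adcy2, Prkaca, Pde1b, Pde5a and Akap7, and outside both for Adcy10, Pde4b, Pde4d and Akap12.

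F1 passed the test against 129 alone for 6 members and against B6 alone for 8. It passed against both parents for 10 and against neither for 18. No share over all tested genes was computed for these classes. Of the members, 42.9% passed against B6 and 38.1% against 129, where 31.2% and 27.7% of all tested genes did. F1 minus B6 gave 13 lower and 5 higher of the 42 tested genes (all tested genes: 20.2% lower and 11% higher), with a median log2 fold change of -0.06 against -0.04 for all. After median-of-ratios rescaling of the libraries the split was 9 lower and 7 higher, and without B6 replicate 1 it was 9 and 4. F1 minus 129 gave 8 lower and 8 higher (all tested genes: 15.7% lower and 12% higher), with a median of 0.01 against -0.01 for all, and 6 lower and 10 higher after rescaling. In place of these 16 calls there were 10 without 129 replicate 1 and 10 without 129 replicate 3. These contrasts share libraries with each other and with 129 minus B6, so their counts are not independent.

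F1 differed from the mid-parent value in 6 phosphodiesterases and in 5 other members. Of the 42 tested genes, 7 were lower and 4 were higher than the mid-parent value, 16.7% and 9.52%, against 14.8% and 8.35% of all tested genes, so the members' shares were near those of all genes. After median-of-ratios rescaling 7 were lower and 9 higher, and without B6 replicate 1 these numbers were 7 and 3. Of the 11 called genes 6 were phosphodiesterases acting on cyclic AMP (Pde7a, Pde4b, Pde3a and Pde8b lower, Pde1a and Pde4d higher, of 11 tested). Pde8b passed the filter only through its 129 libraries, which are part of the mid-parent value. The 5 other called genes were Adcy10, Prkar1a and Akap12, which were lower, and Prkar2b and Akap1, which were higher. The largest was Adcy10 at -0.60 (SE 0.08, adjusted p = 0.000783). No CREB, CRTC or catalytic subunit gene passed.

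**Figure D5:**
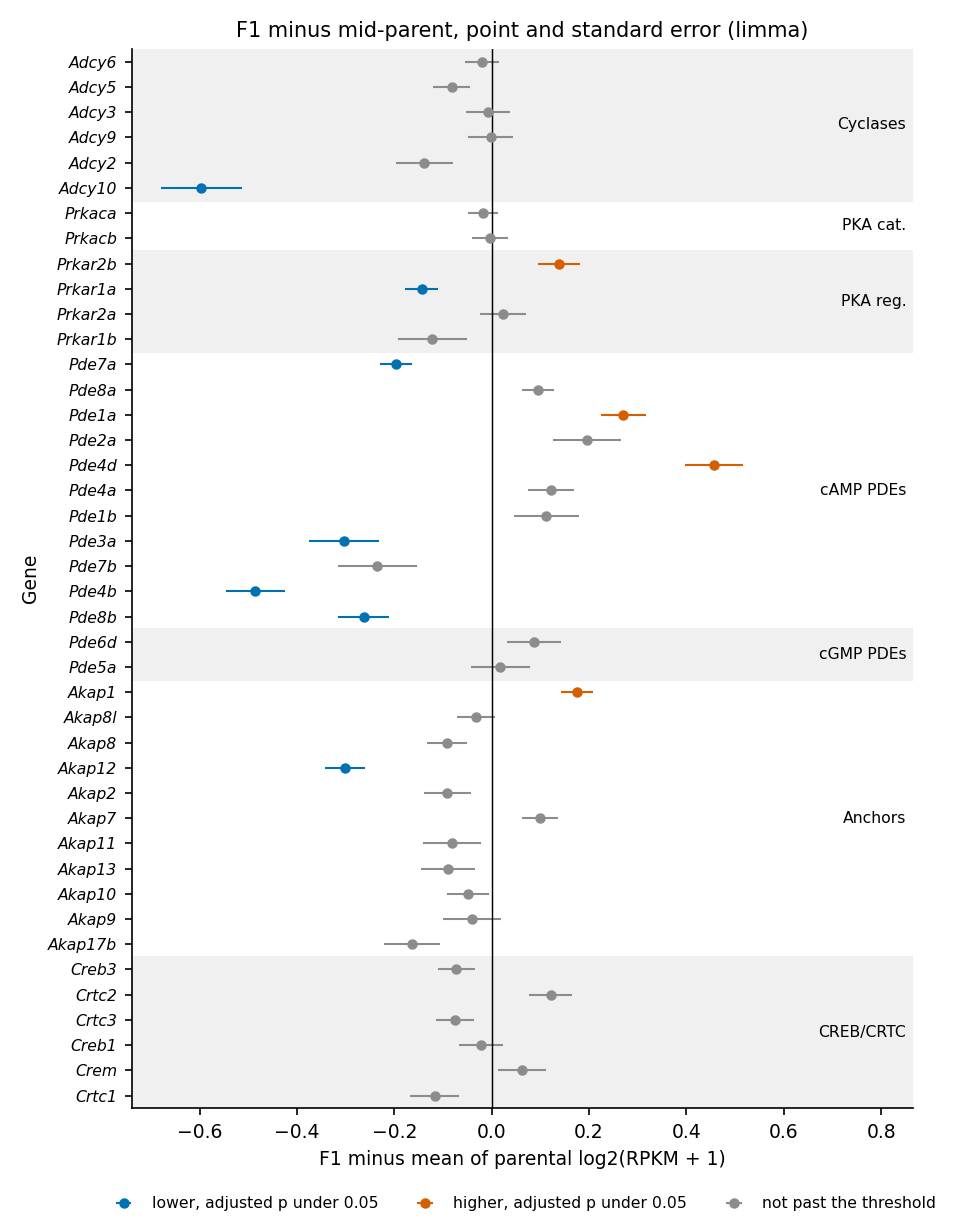
F1 minus the mean of the parental log2(RPKM + 1) for each of the 42 tested genes, with standard errors from limma, grouped by role. Adcy10 and Pde4b lie farthest to the left and Pde4d farthest to the right, while Adcy2 and Akap7, which differed most between the parents, do not pass.

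By the order of the libraries alone, all 3 F1 values lay above all 6 parental values for 5 of the 42 (Pde8a, Pde1a, Pde4d, Akap1 and Crtc2), against 5.72% of all tested genes. They lay below all 6 for 7 (Adcy10, Prkar1a, Pde3a, Pde7b, Pde4b, Pde8b and Akap12), against 9.7%. Of these, Pde8b passed the filter only through its 129 libraries. The F1 values lay between the parental ranges for 6 (Adcy6, Adcy2, Prkaca, Pde1b, Pde5a and Akap7), against 9.67%, and overlapped a parent for 24. By the tests, F1 differed from both parents in opposite directions, and so lay between them, for Adcy2, Prkaca, Pde5a and Akap7. It differed from both in the same direction for Adcy10, Prkar1a, Pde3a and Pde4b, which were lower, and Pde1a and Pde4d, which were higher. No share over all tested genes was computed for these classes by the tests. The call of Prkar1a against B6 did not hold in 11 of 16 alternatives. Against 129, that of Pde3a did not hold in 10 of 15 and that of Pde5a in 5 of 15.

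The other genes of the pathway were 69 in lists by role, of which 54 were tested. Of these, 16 were lower and 11 higher in 129 than in B6, where 21.7% and 15.9% of all tested genes were lower and higher. Without B6 replicate 1, 15 were lower and 7 higher of 53 tested. Among receptors coupled to cyclic AMP 5 of 10 were lower and 2 higher. Mc5r, a melanocortin receptor that raises cyclic AMP, was lower at -1.50 (SE 0.08, adjusted p = 1.56e-07), and Hcar1, the lactate receptor that lowers it, was higher at 1.17 (SE 0.05, adjusted p = 2.87e-08). Adrb3 was lower at -0.55 (SE 0.04, adjusted p = 2.44e-06) and the prostaglandin receptor Ptger4 at -0.50 (SE 0.06, adjusted p = 0.000117). Among G proteins and receptor regulators 5 of 11 were lower and 3 higher. The receptor kinase Grk5 (-0.76), the inhibitory G protein subunit Gnai1 (-0.59), the G protein regulator Rgs2 (-0.40) and the arrestin Arrb1 (-0.51) were all lower.

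Of 6 tested effectors and PKA inhibitors, the inhibitor Pkig was lower in 129 (-0.45) and the inhibitor Pkia higher (0.21), while Pde3b, of the same list, did not pass at -0.08 (95% interval -0.19 to 0.04, adjusted p = 0.283). Of 11 CREB partners and CRTC kinases, Creb3l1 was higher (0.46) and none was lower. Of 11 tested genes known to be induced by cyclic AMP, 4 were lower and 3 higher. Nr4a2 (-0.80), Ppargc1a (-0.59), the coactivator of thermogenic genes, and Egr1 (-0.38) were lower and Dusp1 (0.44) was higher. Nr4a2 reached an RPKM of 1 only in the B6 libraries (1.23 to 1.36, against 0.290 to 0.352 in 129 and 0.576 to 0.684 in F1). It passed the filter through the group where it was high, so its difference is in part a condition of its being tested. Of 5 genes of lipolysis, Abhd5 was lower (-0.28), Mgll higher (0.19), and the other 3 did not pass. F1 minus B6 gave 13 lower and 8 higher of the 54 (all tested genes: 20.2% and 11%). F1 minus 129 gave 9 lower and 13 higher (all tested genes: 15.7% and 12%), and F1 minus the mid-parent value 6 and 6 (all tested genes: 14.8% and 8.35%). In place of the 21 calls of F1 minus B6 there were 11 without B6 replicate 1 and 13 without F1 replicate 2.

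The 18 members that were not tested reached at most 0.985 RPKM in any library, the highest value of Pde10a, and Pde6c was at 0 in all 9. They were the cyclases Adcy1, Adcy4, Adcy7 and Adcy8, the phosphodiesterases Pde1c, Pde4c, Pde6a, Pde6b, Pde6c, Pde9a, Pde10a and Pde11a, the anchors Akap3, Akap4, Akap5, Akap6 and Akap14, and Creb5. Just inside the filter, Pde8b reached an RPKM of 1 in 3 libraries, Prkar1b in 5, and Adcy2 and Adcy10 in 6. Just outside it, Pde10a ranged from 0.626 to 0.985 RPKM, Adcy4 from 0.634 to 0.893 and Adcy7 from 0.504 to 0.856. Adcy1, a cyclase stimulated by calcium and best known from neurons, was low but separated the groups: it was at 0.696, 0.687 and 0.706 RPKM in B6, at 0.216, 0.241 and 0.203 in 129 and at 0.460, 0.608 and 0.500 in F1, from 59 to 398 reads per library. In a fit of all genes without the filter its log2 fold change was -0.48 (SE 0.04, limma adjusted p = 4.32e-05) in 129 minus B6 and 0.32 (SE 0.04, adjusted p = 0.000898) in F1 minus 129. Akap6, at most 0.0945 RPKM, passed in that fit as well in 129 minus B6 with a log2 fold change of 0.08 (SE 0.02, adjusted p = 0.0087). In F1 minus B6, Adcy1 was at -0.16 (adjusted p = 0.0193), Pde10a at -0.17 (adjusted p = 0.0489) and Pde11a at -0.23 (adjusted p = 0.0303), and the Pde genes passed against the mid-parent value too, at -0.16 (adjusted p = 0.0474) and -0.22 (adjusted p = 0.0315). These 4 genes were singled out after their values were seen.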

How the data were processed

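RNA was measured in 9 libraries, 3 per group. Per the file headers and the submitters' processing notes, the authors aligned reads with STAR to mm9 and deposited RPKM per gene. How reads were counted, with which annotation and filter, is not given in the sources used here. RPKM times exon length summed to the same total in each library, and the values were whole reads (tolerance 0.1) for 100% of genes, from which depth was recovered. Of 24013 symbols, 2 stood on more than 1 row. Cells in 5 unnamed columns, on 31 rows and none of a member, were not used.

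Values were analysed as log2(RPKM + 1) for genes that reached an RPKM of 1 in 3 or more of the 9 libraries, with limma 3.58.1 under R 4.3.3 (mean-variance trend, 1 mean per group, all 9 libraries, two-sided, Benjamini-Hochberg over 11542 genes, threshold 0.05), and the procedure was tested on simulated data. On this scale fold changes of low genes are understated. Intervals are 95% intervals of the same fit. Precision is limited by 3 libraries per group. The members and gene lists were chosen with earlier results of these data known. Every tested member is named. The sum of 1 marker list is not reported here. Values per library are given for the 12 largest called differences between 129 and B6, the 5 largest from the mid-parent value, and Prkaca, Prkacb, Prkar1a, Prkar2a, Prkar2b, Creb1 and Crem, and a few others are given so because the text turns on them. Of each other pathway list, up to 4 genes with the smallest p are named. The alternatives were a pseudocount of 0.1, no filter, an RPKM minimum of 5, median-of-ratios rescaling, voom on the recovered reads, sample weights, a replicate block, leaving out each library, the 6 parental libraries alone, and a mid-parent value on the RPKM scale.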

Additional observations from a re-analysis of the deposited data

How the results depend on the processing

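No member changed direction with a call in any alternative. Of the 19 members called in 129 minus B6, 13 were called in every alternative in which they were tested, as were 13 of 18 in F1 minus B6, 11 of 16 in F1 minus 129 and 10 of 11 in F1 minus the mid-parent value. Under an RPKM minimum of 5, which left 24 members to test, 11, 10, 7 and 6 members were called in the 4 contrasts in that order. Leaving out each library in turn gave 13 to 18 called members in 129 minus B6, 13 to 18 in F1 minus B6, 10 to 18 in F1 minus 129 and 9 to 15 in F1 minus the mid-parent value, and for the other pathway genes 22 to 27, 11 to 21, 19 to 23 and 8 to 15. Deviations from group means correlated across genes at -0.192 to 0.215 between same-numbered libraries of different groups. Between differently numbered ones they correlated at -0.203 to 0.231. With 3 libraries per group these values cannot show whether the replicate numbers pair the libraries. With the replicate block 17, 18, 13 and 11 members were called. F1 minus the mid-parent value gave 16 calls each with median-of-ratios rescaling, voom on recovered reads and sample weights, against 11. The 3 libraries per group, of unstated origin, and the lower depth of the parental libraries limit what small differences could be called.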
